A study of Mus musculus with 6 samples.

Results

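Transcripts of 7 hormone receptors and 2 vitamin D enzymes were described in femur RNA of mice after phlebotomy (blood removal) and of control mice. The members were chosen by gene symbol, as the genes through which bone receives the endocrine signals of parathyroid hormone, vitamin D, estrogen, glucocorticoid, growth hormone, insulin and thyroid hormone. They are Pth1r, Ghr, Insr, Vdr, Nr3c1, Esr1, Thra, Cyp27b1 and Cyp24a1, which make 9 of 55421 genes in the count table, all protein-coding, and 8 of them passed the filter on low counts. The study compared 3 phlebotomy libraries with 3 control libraries, all from femur bone of C57BL/6 mice of 12 weeks labelled with the genotype WT, and its title places it in work on erythroferrone and the control of liver hepcidin by osteocytes. The RNA was that of an osteocyte-enriched bone fraction (osteocytes are the cells that live inside bone matrix), read in paired-end mode at 126 bp. The sources used here do not give the volume of blood removed or the time until tissue was taken. Phlebotomy 1, 2 and 4 and control 1, 2 and 4 are the deposited column numbers, and columns were assigned to groups by their initials, with control by elimination, which limits every comparison.

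Parathyroid hormone acts on bone through a G protein-coupled receptor that raises cyclic AMP. Vitamin D, glucocorticoid, estrogen and thyroid hormone act through nuclear receptors, which bind DNA and regulate transcription in answer to their ligand. Active vitamin D is made by one cytochrome P450 enzyme and broken down by another. In bone these signals govern matrix formation, mineralisation and the release of factors that control osteoclasts, and osteoblasts and osteocytes are the best known carriers of the parathyroid hormone receptor there.

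The libraries held 14853290 to 15866385 gene counts after phlebotomy and 11219243 to 19015588 in control. None of 13 osteocyte markers was at 0, which shows their presence but does not measure enrichment. Dmp1, an osteocyte matrix protein and the most abundant of them, was at 11445 to 22234 CPM after phlebotomy and 18771 to 43051 CPM in control (counts scaled to library size with TMM). The 13 summed to 14300 to 25610 CPM after phlebotomy and 23570 to 49790 CPM in control. Phlebotomy 2 held 3686 counts of the marker and reporter sequences Neo, EGFP, DsRed and Venus, which go against its WT label, and where a call turns on it the value without it is given. The fractions also held marrow RNA. The 11 neutrophil markers summed to 27690 to 43350 CPM after phlebotomy and 19710 to 47930 CPM in control, and 10 erythroid markers to 19670 to 29850 CPM and 13480 to 29700 CPM in the same order. A level in these bulk samples can therefore come from several cell types, and fewer cells of a type cannot be told apart from less RNA per cell.

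Of the 8 members tested, 6 had negative log2 fold changes, against 50.2% of all genes, and none passed an adjusted p of 0.05 in edgeR, where 0.0159% of all 18838 genes tested passed. DESeq2, which gave no adjusted p for Cyp24a1, and limma-voom called 0 of them as well. At an unadjusted p under 0.05 there were 2, Pth1r and Vdr, both with less transcript after phlebotomy, against 9.42% of all genes in that direction and 7.01% in the other. The groups did not overlap for 3 members, Pth1r, Vdr and Nr3c1, all lower after phlebotomy, against 11.2% of all genes with that order and 10.1% with the reverse. The median log2 fold change of the 8 was -0.17, against -0.0028 for all genes tested.

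**Figure D1:**
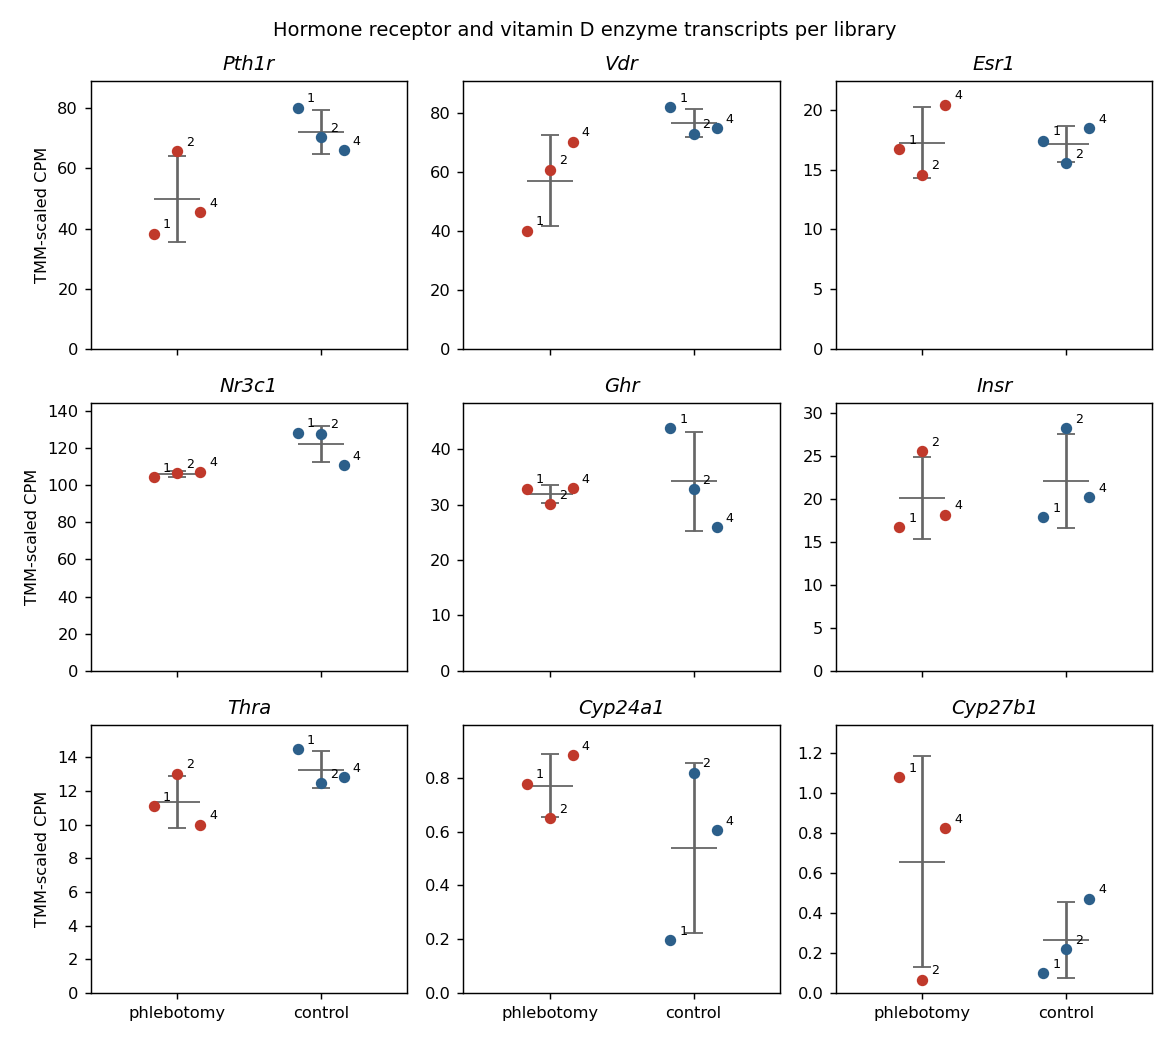
Transcript level of each member in every library, in TMM-scaled CPM on linear axes that start at 0. Points are libraries numbered by deposited column, with the phlebotomy group left of control, and the bar and whiskers give mean and SD (n = 3). Pth1r ran from 38.3 to 65.8 CPM after phlebotomy and from 66.1 to 80.3 CPM in control, while the groups overlapped for Esr1, Ghr, Insr, Thra and Cyp24a1.

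Among the membrane receptors, Pth1r, the receptor for parathyroid hormone and its related peptide (ENSMUSG00000032492, chromosome 9, 110722085 to 110747145 on GRCm38), had the lowest value relative to control. It was at 38.3, 65.8 and 45.5 CPM in phlebotomy 1, 2 and 4, against 80.3, 70.3 and 66.1 CPM in control 1, 2 and 4. Phlebotomy 1 and 4 lay far below every control library, and phlebotomy 2 lay just below the lowest of them. The phlebotomy mean was 69.0% of the control mean, and the log2 fold change was -0.53 ± 0.20 (SE, edgeR adjusted p 0.229, 95% interval -0.96 to -0.11). Pth1r passed the threshold in 1 of 21 alternatives, without phlebotomy 2, where its log2 fold change was -0.82 and its edgeR adjusted p 0.0339. In that fit 2.99% of all genes passed as lower and 1.75% as higher, so the call was not particular to Pth1r. Over all the alternatives its adjusted p ran from 0.0339 to 0.823. Without phlebotomy 1 the log2 fold change was -0.35. Removing a trend with GC content and transcript length from each library gave -0.36, and using no scaling factor gave -0.39. The edgeR unadjusted p was then 0.057 and 0.058. Its exons share 95 bases with the opposite-strand gene Myl3, 3.25% of its exon length.

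Ghr, the growth hormone receptor, which signals through the kinase JAK2, showed no such separation. Its level was 32.8, 30.0 and 33.0 CPM in phlebotomy 1, 2 and 4, against 43.8, 32.8 and 25.9 CPM in control 1, 2 and 4. The phlebotomy libraries were close together and lay inside the control range, which ran widely. The log2 fold change was -0.09 ± 0.20 (SE, edgeR adjusted p 0.843), with a 95% interval of -0.52 to 0.34, and it was 0.11 without control 1.

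Insr, the insulin receptor, was at 16.7, 25.5 and 18.1 CPM in phlebotomy 1, 2 and 4, against 17.85, 28.2 and 20.2 CPM in control 1, 2 and 4. The high library of each group was the one numbered 2, and the groups overlapped. The log2 fold change was -0.14 ± 0.22 (SE, edgeR adjusted p 0.7795), with a 95% interval of -0.62 to 0.34. It ran from -0.39 without phlebotomy 2 to 0.05 without control 2.

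Vdr, the nuclear receptor for vitamin D (ENSMUSG00000022479, chromosome 15, 97854425 to 97910630 on GRCm38), was the second member whose groups stood apart at an unadjusted p under 0.05. Its level was 40.0, 60.8 and 70.3 CPM in phlebotomy 1, 2 and 4, against 82.1, 73.1 and 74.8 CPM in control 1, 2 and 4. All phlebotomy libraries lay below all controls, phlebotomy 1 far below the other 5 libraries and phlebotomy 4 just below control 2. The phlebotomy mean was 74.4% of the control mean, and the log2 fold change was -0.43 ± 0.20 (SE, edgeR adjusted p 0.302, 95% interval -0.85 to -0.0025). Leaving out phlebotomy 1 gave -0.20, and removing a trend with GC content and transcript length from each library gave -0.26.

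The GC box, a short element of many promoters without a TATA box, was found before starts of Pth1r, Vdr and Ghr. The 250 bases before 1 of the 3 RefSeq starts of Pth1r and before the RefSeq start of Vdr are shown. These were the members whose groups stood apart with an edgeR unadjusted p under 0.05. The Pth1r stretch shown is the one with the most GC boxes, and the Vdr start lies inside the gene span given above. Capitals mark GGGCGG or its complement, and sequences run 5′ to 3′ along the gene (minus strand for both, RefSeq, GRCm38.p6).

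Pth1r, chr9:110742611-110742860: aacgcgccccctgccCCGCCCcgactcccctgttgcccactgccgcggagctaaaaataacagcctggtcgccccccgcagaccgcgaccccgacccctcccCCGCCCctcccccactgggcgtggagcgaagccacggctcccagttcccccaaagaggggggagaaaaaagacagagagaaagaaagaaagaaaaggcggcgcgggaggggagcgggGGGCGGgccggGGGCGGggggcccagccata

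Vdr, chr15:97908297-97908546: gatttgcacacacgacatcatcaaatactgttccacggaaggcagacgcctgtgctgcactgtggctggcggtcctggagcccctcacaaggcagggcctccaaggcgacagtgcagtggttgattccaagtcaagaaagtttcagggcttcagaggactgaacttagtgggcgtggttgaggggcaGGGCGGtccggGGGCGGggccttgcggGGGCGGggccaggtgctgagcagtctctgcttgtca

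The Pth1r stretch held 4 matches and 70.4% G and C, and the Vdr stretch held 3 matches and 61.2% G and C. Of the other Pth1r starts one held 1 match and one held none. One of the Ghr starts held 2 matches, and the groups overlapped for Ghr. GGGCGG, searched on both strands, was found in 32.7% of 32851 RefSeq promoter stretches of this length, so the match is common. RefSeq promoter stretches were searched for 5 members (Pth1r, Vdr, Esr1, Ghr and Cyp27b1, with 9 starts). Insr, Thra and Cyp24a1 had no entry, and Nr3c1 was left out of the search. The hexamer AGGTCA, the half-site bound by many nuclear receptors, occurred in 14% of all stretches and in none of these 9. No match was found in them either for the direct repeat of that hexamer with 3 bases between, for the estrogen response element core, for the palindromic glucocorticoid response element or for the cyclic AMP response element TGACGTCA, which occurred in 0.00609%, 0.0639%, 0.00913% and 1.55% of all stretches. These strings say nothing about binding outside the window or at other letters.

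Nr3c1, the glucocorticoid receptor, varied little among the phlebotomy libraries. It was at 104, 106 and 107 CPM in phlebotomy 1, 2 and 4, against 128, 128 and 111 CPM in control 1, 2 and 4. The phlebotomy libraries were nearly equal and all lay below the controls, the lowest of which was close to them. The log2 fold change was -0.21 ± 0.15 (SE, edgeR adjusted p 0.514), with a 95% interval of -0.53 to 0.12.

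Esr1, which encodes estrogen receptor alpha, had almost equal means. Its level was 16.7, 14.6 and 20.5 CPM in phlebotomy 1, 2 and 4, against 17.5, 15.6 and 18.5 CPM in control 1, 2 and 4. The groups overlapped throughout, and phlebotomy 2 and 4 were the lowest and the highest of the 6 libraries. The log2 fold change was 0.01 ± 0.20 (SE, edgeR adjusted p 0.987), with a 95% interval of -0.41 to 0.43, so differences within that range remain possible.

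Thra, the thyroid hormone receptor alpha gene, was at 11.1, 13.03 and 9.99 CPM in phlebotomy 1, 2 and 4, against 14.5, 12.5 and 12.8 CPM in control 1, 2 and 4. Phlebotomy 2 lay inside the control range and the other phlebotomy libraries below it. The log2 fold change was -0.22 ± 0.20 (SE, edgeR adjusted p 0.5996), and removing the trend with GC and length gave -0.03. Thra shares 263 exon bases, 5.7% of its exon length, with the opposite-strand gene Nr1d1, a circadian nuclear receptor. Nr1d1 was at 46.4, 68.8 and 69.0 CPM in phlebotomy 1, 2 and 4, against 138, 105.2 and 100.1 CPM in control 1, 2 and 4, so reads over the shared stretch may belong to either gene.

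Cyp27b1, the enzyme that makes active vitamin D and is best known from the kidney, was close to the limit of detection and was not tested. It held 18, 1 and 13 counts in phlebotomy 1, 2 and 4, against 1, 4 and 7 counts in control 1, 2 and 4. Phlebotomy 1 and 4 lay above every control library, and phlebotomy 2 shared the lowest count with control 1. The sums were 32 and 12 counts for phlebotomy and control, a ratio of 2.41 after scaling with a 95% exact counting interval of 1.21 to 5.15, which covers counting error only. Over the authors' filtered genes, which include it, edgeR gave 1.14 on the log2 scale (adjusted p 0.497). With 1 library left out it passed the low-count filter in 4 of 6 fits. All of these kept phlebotomy 1 and 4, the libraries with its highest counts, so the filter itself favoured a positive value. There the log2 fold change ran from 0.93 without control 1 to 1.86 without control 4 and was 1.73 without phlebotomy 2 (edgeR adjusted p 0.702, 0.365 and 0.110 in that order).

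Other genes near the detection limit also had more counts after phlebotomy. Among 29 genes of the pathway lists that did not pass the filter, 25 had more counts in phlebotomy than in control libraries. As a gauge of background reads, 1183 genes of olfactory and vomeronasal receptors summed to 186, 110 and 279 CPM in phlebotomy 1, 2 and 4 and to 98.3, 102 and 90.3 CPM in control 1, 2 and 4. Phlebotomy 4 was highest there and phlebotomy 2 lay above every control, whereas for Cyp27b1 phlebotomy 1 was highest and phlebotomy 2 lowest in CPM. The 11 monocyte and macrophage markers, of cells that can make this enzyme, had mean log2 CPM, centred on the 6 libraries, of 0.48, -0.20 and 0.18 in phlebotomy 1, 2 and 4, with control libraries between -0.18 and -0.13. Their summed level was 1921 to 2342 CPM after phlebotomy and 1881 to 2162 CPM in control, and none of the 11 was at 0. The part of either measure in the Cyp27b1 counts was not tested.

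Cyp24a1, the enzyme that inactivates vitamin D and a classical target of the vitamin D receptor, was likewise near the limit. It held 13, 10 and 14 counts in phlebotomy 1, 2 and 4, against 2, 15 and 9 counts in control 1, 2 and 4. Control 1 alone was low, and in CPM control 2 lay above phlebotomy 1 and 2 and below phlebotomy 4. EdgeR gave a log2 fold change of 0.43 ± 0.54 (SE, edgeR adjusted p 0.714), with a 95% interval of -0.72 to 1.57, and it was 0.09 without control 1. The gene shares 83 exon bases with the opposite-strand gene Pfdn4, which was at 33.7 ± 8.96 CPM after phlebotomy and 33.3 ± 5.73 CPM in control (SD, n = 3), so a part of these few counts may be reads of Pfdn4.

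**Figure D2:**
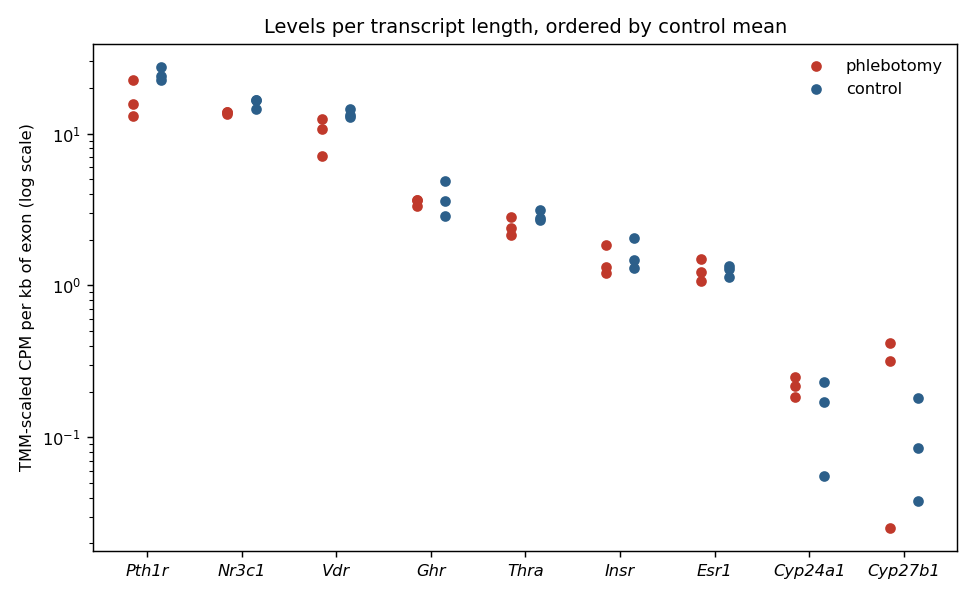
Level of each member divided by its exon length, in TMM-scaled CPM per kb on a log axis, ordered by the control mean. Points are libraries, phlebotomy left of control within each gene. Pth1r, Nr3c1 and Vdr lie between 7.08 and 27.4 CPM per kb, and both vitamin D enzymes lie under 0.42 CPM per kb.

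Per length of exon, the members fell into 3 tiers. In control libraries Pth1r led with 24.7 ± 2.48 CPM per kb, followed by Nr3c1 at 15.9 ± 1.28 and Vdr at 13.6 ± 0.844 CPM per kb (SD, n = 3). Pth1r stood above Nr3c1 in every control library, while Nr3c1 and Vdr overlapped. After phlebotomy Pth1r averaged 17.1 ± 4.87, Nr3c1 13.8 ± 0.199 and Vdr 10.1 ± 2.74 CPM per kb, and there Pth1r overlapped Nr3c1 whereas Nr3c1 stood above Vdr in all libraries.

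The middle tier held Ghr, Thra, Insr and Esr1, at 3.53, 2.46, 1.46 and 1.26 CPM per kb after phlebotomy and at 3.77, 2.87, 1.61 and 1.26 CPM per kb in control. The order of these means was the same in both groups. Insr and Esr1 overlapped in both groups, and Ghr and Thra overlapped in control but not after phlebotomy. The enzymes came last, Cyp24a1 at 0.217 ± 0.0328 CPM per kb after phlebotomy and 0.152 ± 0.0888 CPM per kb in control, and Cyp27b1 at 0.254 ± 0.205 and 0.102 ± 0.0737 CPM per kb in the same order. Their ranges overlapped in both groups. The control level of Pth1r per kb was above that of 87.9% of all genes tested, that of Esr1 above 31.3%, and that of Cyp24a1 above 4.82%. Exon length is the union over annotated transcripts, so the level of a gene with long alternative ends is understated.

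**Figure D3:**
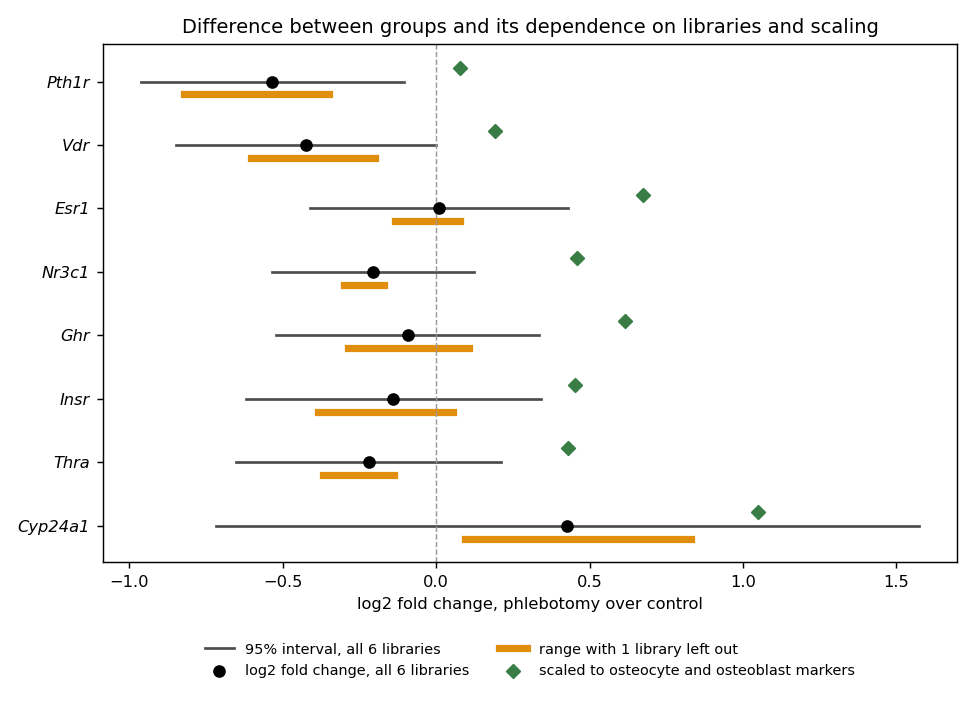
Log2 fold change of phlebotomy over control for the 8 members tested, with the 95% interval of edgeR over all 6 libraries. Orange bars give the range when 1 library is left out, and green diamonds the value when libraries are scaled to osteocyte and osteoblast markers. The interval of Pth1r, -0.96 to -0.11, and that of Vdr lie below 0, and all 8 diamonds lie above 0, from 0.08 for Pth1r to 1.05 for Cyp24a1.

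The level of Pth1r ran with that of bone cell markers from library to library. On the log2 scale centred on the 6 libraries, Pth1r had -0.62, 0.15 and -0.38 in phlebotomy 1, 2 and 4, with control libraries between 0.16 and 0.44. The mean of 14 osteoblast markers was -0.83, 0.20 and -0.41 in phlebotomy 1, 2 and 4, with control libraries between 0.08 and 0.71, so that phlebotomy 2 lay inside the control range for these markers. The mean of 13 osteocyte markers was -0.57, -0.15 and -0.17 in phlebotomy 1, 2 and 4, with control libraries between 0.14 and 0.53 and no overlap. The summed level of the osteoblast markers was 38970 to 70480 CPM after phlebotomy and 68780 to 104400 CPM in control, that of the osteocyte markers 14300 to 25610 CPM and 23570 to 49790 CPM in the same order, and no marker of either list was at 0.

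The distance of a member from these markers, as the root mean square difference of centred log2 levels over 6 libraries, was 0.14 for Pth1r from the osteoblast mean and 0.16 from the osteocyte mean. For Vdr it was 0.30 and 0.15, and for Thra 0.36 and 0.25. Nr3c1 was at 0.41 from the osteoblast and 0.25 from the osteocyte mean. Ghr, Insr and Esr1 lay further away, at 0.45 to 0.56 from the osteoblast mean and 0.33 to 0.39 from the osteocyte mean. A gene that varies little is far from these means whatever its pattern. Nr3c1, Esr1, Ghr and Insr deviated from their own means by 0.123, 0.158, 0.224 and 0.278, against 0.373 for Pth1r. These are descriptions over libraries that share the same 2 groups, and the part of the markers in the results for Pth1r and Vdr was not tested. Distances from other lists were not computed, and nearness to Pth1r was not particular to bone markers. The mean of the insulin signalling genes was -0.37, 0.04 and -0.22 in phlebotomy 1, 2 and 4, with control libraries between 0.14 and 0.26.

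When libraries were scaled so that the 27 osteocyte and osteoblast markers had equal mean levels, the median of all genes moved to 0.65 on the log2 scale. Relative to these markers Pth1r had a log2 fold change of 0.08 and Vdr of 0.19, with edgeR adjusted p of 0.823 and 0.578. Esr1 and Ghr had 0.67 and 0.62, close to the median of all genes, with edgeR adjusted p of 0.135 and 0.131. With this scaling no member passed.

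**Figure D4:**
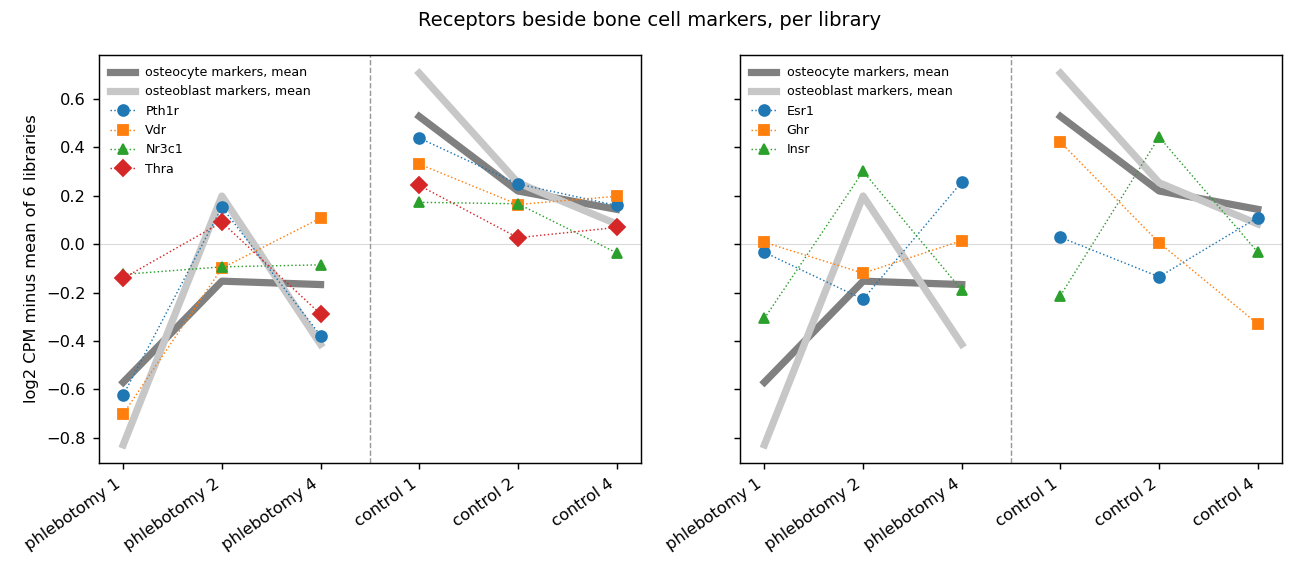
Centred log2 level (log2 CPM minus the mean of the 6 libraries) of 7 receptors in every library, phlebotomy libraries left of control. Thick grey lines give the mean of 13 osteocyte and of 14 osteoblast markers. Pth1r at -0.62, 0.15 and -0.38 in phlebotomy 1, 2 and 4 lies near the osteoblast markers at -0.83, 0.20 and -0.41. Esr1, Ghr and Insr lie further from these markers, although Insr has their order among phlebotomy libraries and Ghr among control libraries.

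The genes with the nearest levels to each member were sought among 8734 protein-coding genes over the 6 libraries, by the same distance of centred log2 levels. Arid5a and Pex5 were nearest to Pth1r, at 0.0386 and 0.041, where Pth1r itself deviated from its mean by 0.373. Stard13 and Smarca2 were nearest to Vdr (0.039 and 0.0597), and Bdp1 and Pitpnb to Nr3c1 (0.0227 and 0.0292). Nup54 and Tnfsf11 were nearest to Esr1 (0.0476 and 0.0612). Tnfsf11, the osteoclast factor RANKL, was at 125 ± 20.7 CPM after phlebotomy and 122 ± 2.64 CPM in control (SD, n = 3). Zfp711 and Gimap6 were nearest to Ghr (0.0558 and 0.057), Fcrla and Adcy7 to Insr (0.0703 and 0.0973), and Leprotl1 and Ubl3 to Thra (0.0245 and 0.034). Kif2c and Rhag were nearest to Cyp24a1, at 0.163 and 0.167, a wider distance than for any other member. Cyp24a1 itself deviated from its mean by 0.549, the most of the members tested, at 2 to 15 counts per library.

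The pathway genes around these receptors were taken from 8 lists with 173 entries, of which 141 different genes were tested. None passed in edgeR over all genes, where 0.0159% of genes passed. At an unadjusted p under 0.05, 35 of the 141 were lower and 5 higher after phlebotomy, against 9.42% and 7.01% of all genes. DESeq2 called 6 of them, all lower, against 1.09% of all genes lower and 0.414% higher, and limma-voom 0. DESeq2 gave no adjusted p for 6584 genes, some of the 141 among them, and its shares count such genes in the base. Without phlebotomy 2 edgeR called 16, all lower, against 2.99% of all genes lower and 1.75% higher. The median log2 fold change of the 141 was -0.24. The lists were chosen with earlier results of these data known, so these shares are no test of the lists.

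**Figure D5:**
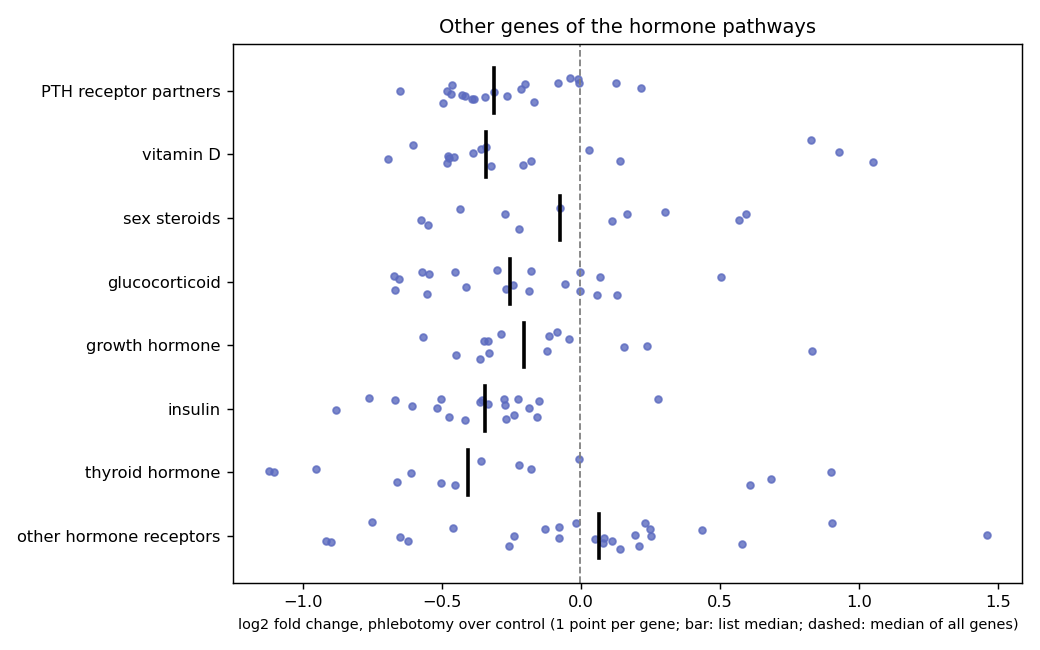
Log2 fold change of phlebotomy over control for each gene tested in the 8 pathway lists, 1 point per gene, with the list median as a black bar and the median of all genes as a dashed line. List medians run from -0.41 for thyroid hormone to 0.07 for other hormone receptors.

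Around the parathyroid hormone receptor, 19 of 21 partners had negative values, with a median of -0.31. The 4 with the smallest p were Crtc3 and Crtc2, coactivators of the cyclic AMP response, Sik3, a kinase that holds them in the cytoplasm, and Mef2c, a transcription factor of osteocytes. Their log2 fold changes were -0.65, -0.50, -0.48 and -0.38, with edgeR adjusted p of 0.179 to 0.265. Crtc2 was at 58.5, 82.3 and 61.7 CPM in phlebotomy 1, 2 and 4, against 91.6, 99.5 and 94.6 CPM in control 1, 2 and 4, so that all phlebotomy libraries lay below all controls. It passed without phlebotomy 2 (log2 fold change -0.70, edgeR adjusted p 0.0407). Gnas, the G protein subunit that couples the receptor to cyclic AMP and which is outside the naming rule, had 193 to 348 counts per library, fewer than a GNAS transgene sequence in the same table with 372 to 619, so its reads may be split and its log2 fold change of -0.20 is uncertain.

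In the vitamin D list, 12 of 17 genes had negative values and the median was -0.34. Rxra, the partner with which the vitamin D receptor binds DNA, was at 16.6, 24.4 and 19.3 CPM in phlebotomy 1, 2 and 4, against 38.9, 32.5 and 26.2 CPM in control 1, 2 and 4. All phlebotomy libraries lay below all controls, with a log2 fold change of -0.69 ± 0.21 (SE, edgeR adjusted p 0.179). Atp2b1, a calcium pump of the cell membrane, had -0.60 (edgeR adjusted p 0.196). Both passed without phlebotomy 2, with edgeR adjusted p of 0.0407 and 0.0495. Slc8a1, a sodium and calcium exchanger, and Cubn, an uptake receptor for the vitamin D carrier in kidney, had 0.93 and 1.05 at 3.36 ± 0.284 and 2.74 ± 0.993 CPM after phlebotomy and 1.78 ± 0.618 and 1.33 ± 0.393 CPM in control (SD, n = 3), with edgeR adjusted p of 0.220 and 0.228.

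Among thyroid hormone genes, 11 of 14 had negative values and the median was -0.41, the lowest of the 8 lists. Thrb, the second thyroid hormone receptor gene, was at 2.88, 5.54 and 6.13 CPM in phlebotomy 1, 2 and 4, against 14.2, 8.58 and 9.01 CPM in control 1, 2 and 4. The groups did not overlap, and the log2 fold change was -1.12 ± 0.30 (SE, edgeR adjusted p 0.161, DESeq2 adjusted p 0.0368). Hr, a corepressor known to bind thyroid hormone and vitamin D receptors, was at 14.5, 25.9 and 14.1 CPM in phlebotomy 1, 2 and 4, against 50.5, 41.9 and 24.7 CPM in control 1, 2 and 4. Phlebotomy 2 lay just above control 4, so the groups overlapped, and edgeR gave -1.10 ± 0.28 (SE, adjusted p 0.160, DESeq2 adjusted p 0.0187). Hr also passed in edgeR without phlebotomy 2 (adjusted p 0.0201). Slc7a5, an amino acid transporter that also carries thyroid hormone, had -0.50 (edgeR adjusted p 0.217).

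In the insulin list, 19 of 20 genes had negative values and the median was -0.34. Ptprf, a receptor phosphatase that acts on the insulin receptor, had -0.88 (edgeR adjusted p 0.155, DESeq2 adjusted p 0.0340). Foxo1, a transcription factor restrained by insulin, was at 31.9, 46.3 and 36.7 CPM in phlebotomy 1, 2 and 4, against 72.1, 55.6 and 55.0 CPM in control 1, 2 and 4, with no overlap (edgeR log2 fold change -0.67, adjusted p 0.169). Enpp1, an inhibitor of the insulin receptor that also makes pyrophosphate in bone, had -0.76 and Irs2, an adaptor of the receptor, -0.61 (edgeR adjusted p 0.203 and 0.209). Ptprf, Foxo1 and Irs2 passed without phlebotomy 2, with edgeR adjusted p of 0.0343 to 0.0368.

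In the growth hormone list, 11 of 14 genes had negative values, with a median of -0.20. Socs3 and Socs2, feedback inhibitors of JAK-STAT signalling, had -0.57 and -0.33, Sh2b1, a JAK2 adaptor, -0.45 and Jak2 -0.36, with edgeR adjusted p of 0.202 to 0.364. Socs3 passed without phlebotomy 2 (-0.80, edgeR adjusted p 0.0406). In the glucocorticoid list, 16 of 20 had negative values, with a median of -0.26. Errfi1, Dusp1 and Klf9, induced by glucocorticoid in many cells, had -0.67, -0.55 and -0.45, and Fkbp4, a chaperone of the receptor, had 0.50, with edgeR adjusted p of 0.196 to 0.222. Fkbp4 was at 135, 110 and 136 CPM in phlebotomy 1, 2 and 4, against 81.8, 81.3 and 105 CPM in control 1, 2 and 4, so that its groups did not overlap. Several of these targets also answer to handling and other stimuli.

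The sex steroid list had a median of -0.07, with 6 of 11 genes negative. Gper1, a membrane receptor for estrogen, had -0.55, Nrip1, a corepressor, -0.27, and Srd5a1, a steroid reductase, 0.57, with edgeR adjusted p of 0.291 to 0.494. Esr2, the second estrogen receptor gene, was under the filter with 30 counts after phlebotomy and 8 in control. It was at 0.78, 0.13 and 0.95 CPM in phlebotomy 1, 2 and 4, against 0.20, 0.27 and 0.07 CPM in control 1, 2 and 4. The sums differed in the direction of the background reads given above, while phlebotomy 2 lay below control 1 and 2. The part of background reads in these counts was not tested.

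Of the other hormone receptors, 12 of 26 had negative values and the median was 0.07. Nr1d1 had a log2 fold change of -0.90 ± 0.20 (SE, edgeR adjusted p 0.139, DESeq2 adjusted p 0.0102), and it passed without phlebotomy 2 (edgeR adjusted p 0.0320). Npr2, the receptor for C-type natriuretic peptide, was at 11.1, 11.0 and 10.4 CPM in phlebotomy 1, 2 and 4, against 27.1, 19.8 and 14.8 CPM in control 1, 2 and 4, with no overlap (log2 fold change -0.92, edgeR adjusted p 0.145, DESeq2 adjusted p 0.0246). Nr4a1, an orphan receptor and immediate early gene, had -0.75 and Rara, a retinoic acid receptor, -0.62 (edgeR adjusted p 0.173 and 0.187), and both passed without phlebotomy 2 (0.0184 and 0.0343). Spearman's rho of the log2 fold change over 16637 genes, which are no independent replicates, was -0.284 with length and -0.232 with GC content, and the part of this trend in the lists was not tested.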

How the data were processed

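RNA-seq counts of 6 femur libraries, 3 of phlebotomy and 3 of control mice, were used. The authors deposited raw read counts per gene, a filtered copy of those counts, and a signal table of CPM values (counts scaled to library size) that they had scaled with TMM, per the file names. Per the submitters' processing notes, the builds were mm10 and GRCm38.p3 and the tools limma, edgeR, DESeq2, STAR 2.5.2a and STAR 2.7.3a, with no roles given. The sources used here do not name the counting program or how it treated strand, and the kit that the labels' protocols name, Nextera XT, does not mark strand, so reads of overlapping genes on opposite strands cannot be told apart. Rows naming no mouse gene (19 of 55440, 0.00278% to 0.0284% of counts) were left out.

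Phlebotomy columns were those with the initial P, and control columns, by elimination, those with N. Their numbers (1, 2 and 4) name libraries but cannot be tied to single titles. Whether each library is a separate animal is not in the labels, so the spread behind each p-value may be technical.

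Genes were filtered with filterByExpr (minimum count 10), which left 18838. TMM scaling and the quasi-likelihood test of edgeR 4.0.16 followed (R 4.3.3, robust, no covariates), with Benjamini-Hochberg adjustment over all genes tested and a threshold of 0.05. The F statistic gave approximate standard errors and 95% intervals. All levels are TMM-scaled CPM, 0.969 to 1.073 times the deposited values. Libraries held 11219243 to 19015588 gene counts, so 3 counts, taken as the floor, correspond to 0.164 to 0.296 CPM. Counting intervals are exact binomial and cover counting error only. No pair of libraries agreed within sampling noise (chi-square per gene 16.4 to 119.7). Exon lengths and coordinates (GRCm38) are from GENCODE M21, and promoter sequences from RefSeq (GRCm38.p6, whose chromosome coordinates are those of the earlier patch). The fit was tested on simulated data.

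Members, pathway lists and marker lists were chosen with earlier results of these data known. The naming rule covers the 9 members, up to 4 genes per pathway list with the smallest p, and for each member tested the 2 protein-coding genes of at least 10 CPM with the nearest levels. It also takes in a few genes that count in their lists but are not reported by name. Alternatives were 4 other scalings, 3 other filters, DESeq2 1.42.0, limma-voom and limma-trend on the deposited values (limma 3.58.1, pseudocounts 0.5 and 1), edgeR without the robust option, protein-coding genes alone, removal of a GC and length trend, leaving out each library and a replicate block. Python 3.11.15 with matplotlib 3.10.9 drew the figures.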

Additional observations from a re-analysis of the deposited data

Results flagged for a closer look

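In phlebotomy 2, 4 sequences that name no mouse gene (Neo, EGFP, DsRed and Venus) held 3686 counts together. Neo held 2288 counts there and at most 12 in any other library, EGFP 920 and at most 6, DsRed 403 and at most 1, and Venus 75 and 0. These reads go against the WT label of the library. The rows lie outside the comparison and were well above the control libraries, which held at most 12 counts of any of them. The values touch the receptor results because phlebotomy 2 was the phlebotomy library nearest to control for Pth1r (65.8 CPM) and Thra (13.03 CPM). Pth1r passed the threshold without phlebotomy 2, in a fit where 2.99% of all genes passed as lower and 1.75% as higher. The nearness of this library to control was not particular to these receptors. Its chi-square per gene (lower is nearer) was 16.4, 19.1 and 38.5 with control 4, 2 and 1. With phlebotomy 4 and 1 it was 33.4 and 58.4.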

How the results depend on the processing

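The count of members called was 0 with all 6 libraries in every alternative run, and 0 to 1 with a library left out. The count over all genes (3) was 284 in DESeq2, 577 with no low-count filter, 20 over the authors' filtered genes, 64 with bone marker scaling, 1 with protein-coding genes alone, 0 in limma-voom (2987 at an unadjusted p under 0.05), and 0 to 963 with a library left out, 0 being without phlebotomy 1 (1529 at an unadjusted p under 0.05) and 963 without phlebotomy 2. The count of pathway genes (0) was 6 in DESeq2, 10 with no low-count filter and 0 to 16 with a library left out. The causes were not tested.

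Scaling to bone markers moved the median of all genes to 0.65 and turned these log2 fold changes positive: Pth1r 0.077, Vdr 0.19, Nr3c1 0.46, Ghr 0.62, Insr 0.45, Thra 0.43, Crtc2 0.12, Sik3 0.15, Mef2c 0.25, Atp2b1 0.034, Gper1 0.072, Nrip1 0.39, Klf9 0.21, Dusp1 0.086, Socs3 0.046, Sh2b1 0.19, Jak2 0.29, Socs2 0.34, Irs2 0.019 and Slc7a5 0.11. List medians were then 0.30 (parathyroid hormone), 0.28 (vitamin D), 0.55 (sex steroids), 0.38 (glucocorticoid), 0.40 (growth hormone), 0.30 (insulin) and 0.26 (thyroid hormone). With no scaling factor, where the median of all genes was 0.14, Ghr had 0.059 and the sex steroid median was 0.061, and upper quartile scaling gave that median as 0.0084. Esr1 was negative over the authors' filtered genes (-0.084), in limma-trend (-0.087 and -0.084 at pseudocounts 0.5 and 1), with no low-count filter (-0.053) and with the replicate block (-0.0020). The median of other hormone receptors was negative over the authors' filtered genes (-0.020), in limma-trend (-0.070 and -0.040) and in limma-voom (-0.0026). With a library left out, Esr1 ran from -0.13 to 0.077, Ghr from -0.29 to 0.11, Insr from -0.39 to 0.053, the sex steroid median from -0.20 to 0.030 and that of other hormone receptors from -0.081 to 0.084.

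Same-numbered libraries did not deviate together (correlations of -0.248, -0.166 and -0.163 across 9382 genes), and none correlated best with its own number. With the replicate block 3 genes were called in all, and 0 members and 0 pathway genes. Cyp24a1 held 2 to 15 and Cyp27b1 1 to 18 counts per library, so small differences in either were not detectable at this depth.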
